A study of Mus musculus with 6 samples.

Results

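Ly6a, Ly6e and Thy1 are 3 of the 34187 genes measured in CD45+ cells of mouse pancreatic tumors, and all encode small surface proteins that are held in the membrane by a glycosylphosphatidylinositol (GPI) anchor. They were taken by name from the raw count matrices, because Ly6a had been seen to be higher in NK cells after both cytokines, and they are described here across the 12 annotated T and NK cell clusters and in macrophages. C57BL/6 mice carried subcutaneous tumors of the pancreatic cancer line 6694c2vTRP1 and were injected intraperitoneally with PBS, with mono-IL10 (a monomeric IL-10) at 26 µg per mouse, or with IL10/2-Trikine (mono-IL10 joined to an IL-2 variant that recruits IL-2Rβ) at 30.6 µg per mouse. There were 2 doses, the first on day 8, and tumors were taken on day 14. The tumor model used both male and female mice, and the sources used here do not give the sex or age of the mice of each sequenced group. CD45+ cells were isolated with beads, the cells of each of the 5 mice of a group were tagged with a hashtag antibody of their own, and each group was then pooled into 1 library for droplet-based 5′ single-cell RNA sequencing. Since each treatment is 1 library, treatment and library cannot be told apart. The same PBS mice served both treated groups, and a mouse, not a cell, was the unit of every test.

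Ly6a, known as Sca-1, marks stem and progenitor cells in the mouse and is also carried by activated T cells and regulatory T cells. Ly6e belongs to the same Ly6/uPAR family, whose members share a fold of finger-like loops, and both genes are known to be induced by interferons. Thy1, the T cell antigen CD90, is grouped with them here as a GPI-anchored lymphocyte marker, but it belongs to the immunoglobulin superfamily and does not have the Ly6 fold. Ly6a and Thy1 are also on the list of STAT5 target genes that the study took from the literature to score these cells. STAT5 is the transcription factor through which IL-2 mainly signals, whereas IL-10 signals mainly through STAT3.

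The 3 libraries held between 30528 and 55504 barcodes and between 364814102 and 515236552 gene UMIs (unique molecular identifiers, each standing for 1 captured transcript). The annotation covered 516 PBS, 843 mono-IL10 and 725 IL10/2-Trikine cells, with median depths of 2780, 3959 and 2635 UMIs, and a mouse was known for 348, 635 and 400 of them. Pairs of libraries shared between 408 and 700 barcode sequences, of which 0 were annotated in both. Despite the CD45+ isolation, 45961 barcodes had the markers of tumor epithelial cells. Levels are given as CPM, the UMIs of a gene per 1000000 UMIs of the summed cells, and intervals on summed counts cover counting error only. Ly6a has close relatives in sequence, such as Ly6c1, Ly6c2, Ly6f and Ly6i, and reads shared with them could make its counts uncertain, which was not tested.

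In NK cells, the lymphocytes that kill without a rearranged antigen receptor, Ly6a was at 0 or a single UMI in 4 of 5 mice after PBS and was found in every mouse after either cytokine. Because the genes were chosen on these values, they are given as a description with no test. In the PBS mice the level was 0, 8.69, 16.9, 124 and 21.98 CPM, which came from 0, 1, 1, 16 and 1 UMIs in 10 to 31 cells a mouse. In the mono-IL10 mice with at least 10 NK cells it was 415, 315, 235 and 395 CPM, and in the IL10/2-Trikine mice it was 387, 373, 525, 225 and 430 CPM. The 9 treated mice all lay above the highest PBS mouse, which itself stood apart from the other 4. The fifth mono-IL10 mouse, left out for having only 9 NK cells, was at 47.5 CPM from 3 UMIs, within the range of the PBS mice. Group means were 34.4 ± 51.0 CPM after PBS (SD, n = 5), 340 ± 82.2 after mono-IL10 (n = 4) and 388 ± 109 after IL10/2-Trikine (n = 5), ratios to PBS of 9.89 and 11.3. Without the PBS mouse at 124 CPM these ratios were 28.6 and 32.6, and with the mono-IL10 mouse of 9 cells the first was 8.19. In the summed counts of a cell type, fewer cells that express a gene and less of its RNA per cell cannot be told apart.

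**Figure D1:**
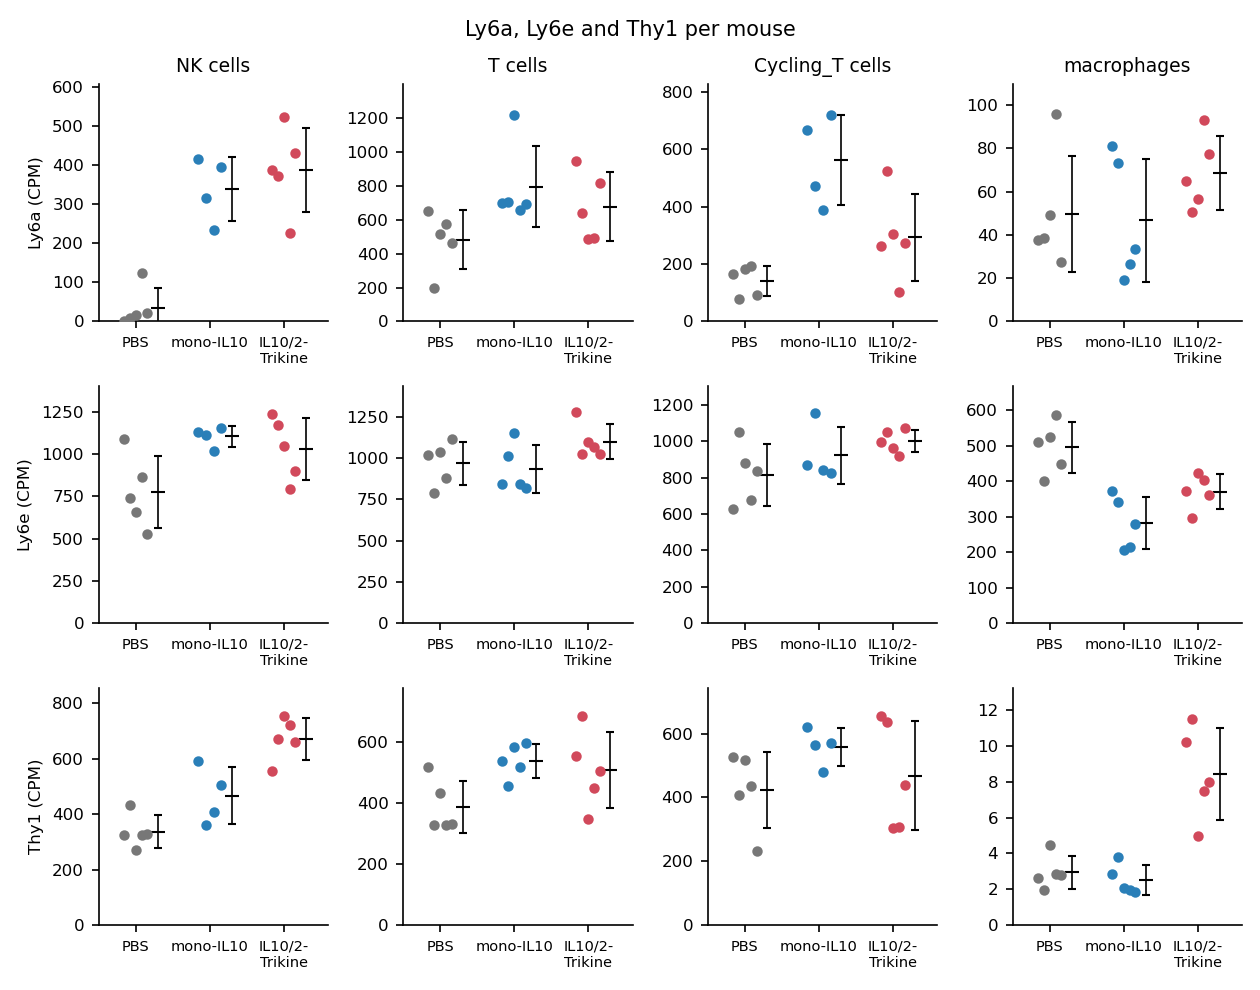
CPM (y axis, from 0) of Ly6a, Ly6e and Thy1 in each mouse by treatment (x axis) for NK cells, T cells, Cycling_T cells and macrophages; points are mice, and the black bar beside them is the mean ± SD, cut at 0 where it would go below. Ly6a in NK cells lies between 0 and 124 CPM in PBS mice and between 225 and 525 CPM in treated mice with at least 10 NK cells, while the mean Ly6e level of macrophages is 495 CPM after PBS, 282 after mono-IL10 and 371 after IL10/2-Trikine.

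Every mouse above every PBS mouse was seen for 37 of the 2448 genes tested in NK cells after mono-IL10 (1.51%) and for 66 after IL10/2-Trikine (2.7%). Ly6a was among them in both comparisons and Thy1 in the second, but the choice of genes had used this contrast, so nothing is read from that. Thy1 was at 324, 434, 271, 326 and 330 CPM in the NK cells of PBS mice, at 593, 361, 409 and 506 CPM after mono-IL10 and at 555, 669, 753, 723 and 662 CPM after IL10/2-Trikine. The IL10/2-Trikine mice did not overlap with the PBS mice, and the mono-IL10 mice did. Means were 337 ± 59.6, 467 ± 103 and 672 ± 75.8 CPM, so that the ratio to PBS was 1.39 after mono-IL10 and 1.99 after IL10/2-Trikine. Ly6e ranged from 527 to 1091 CPM in PBS mice with a median of 738, from 1019 to 1154 CPM after mono-IL10 and from 794 to 1238 CPM after IL10/2-Trikine. Its ratios of means were 1.42 and 1.33, and the groups overlapped in both cases.

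The NK cluster also holds annotated cells with no mouse, which are part of the values the genes were chosen on and are given as a description. Ly6a stood at 12.5 CPM in 74 such PBS cells (3 UMIs), at 221 CPM in 73 mono-IL10 cells and at 290 CPM in 183 IL10/2-Trikine cells. Cells with NK cell markers that are not in the authors' annotation came to 35, 39 and 154 in the same 3 libraries, and there Ly6a was at 50.6, 307 and 281 CPM.

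The share of NK cells with Ly6a was also compared at equal depth. At least 1 Ly6a UMI was found in 8.00% of NK cells after PBS, 55.7% after mono-IL10 and 46.9% after IL10/2-Trikine (means over mice, ranges 0 to 22.6, 44.4 to 64.5 and 30.8 to 61.0%). With every cell thinned to 1500 UMIs, which left out none of the NK cells, the shares were 2.77, 29.6 and 30.2%. At that depth the share was 3.83, 3.92 and 5.39% in macrophages of the 3 groups, though some macrophage-like clusters hold Ly6a themselves. Of the PBS mice, 3 had a thinned NK share of 0%, 1 of 4.17% and mouse 4 of 9.68%, beside 2.30 to 6.41% in PBS macrophages. With 10 to 31 NK cells a mouse these shares rest on few cells, so single mice cannot be placed above or below that level. Before thinning the median depth was 3086, 4846 and 2532 UMIs in NK cells and 5068, 6194 and 2751 UMIs in macrophages. For Ly6e the thinned shares of NK cells were 61.4, 78.1 and 73.3%, and for Thy1 they were 38.0, 43.0 and 55.4%. Of all thinned NK cells, 3 or more Ly6a UMIs were held by 0% in the PBS library, 3.16% in the mono-IL10 library and 2.96% in the IL10/2-Trikine library.

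Thy1 was found in 60.3% of the 121 thinned IL10/2-Trikine NK cells with Ly6a (95% interval 51.0 to 69.1) and in 49.8% of the 251 without it (43.5 to 56.2). In the mono-IL10 library the corresponding shares were 49.2% of 65 cells (36.6 to 61.9) and 39.4% of 188 cells (32.3 to 46.7). The intervals overlapped in both libraries, and with 6 Ly6a-positive PBS cells no such split could be read in that library.

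Marker sums are given beside these levels, since a pool of NK cells can hold others. The 8 T cell markers summed to 442 to 727 CPM in the NK cells of PBS mice, 506 to 781 CPM after mono-IL10 and 545 to 684 CPM after IL10/2-Trikine, with none of the 8 at 0. Of the 5 markers of regulatory T cells, which carry much Ly6a, Foxp3 was at 0 in all 3 groups, and the sums spanned 418 to 782, 530 to 848 and 503 to 794 CPM. Of the 7 endothelial markers, 6 were at 0 in the PBS and mono-IL10 NK cells and 3 in the IL10/2-Trikine NK cells, and the sums ran from 88.5 to 194, from 111 to 190 and from 64.5 to 160 CPM. The 8 NK cell markers, which include the effector genes Gzma and Prf1, summed to 1179 to 3598 CPM after PBS, 3897 to 4873 CPM after mono-IL10 and 4953 to 12429 CPM after IL10/2-Trikine, none at 0. The 7 mast cell or basophil markers, of a cell type that also carries Ly6a, went the other way and separated the groups, with 154 to 208 CPM after PBS against 63.2 to 112 CPM after mono-IL10 and 22.8 to 107 CPM after IL10/2-Trikine, and with 4, 4 and 3 of the 7 at 0. The 12 macrophage or monocyte markers summed to 147 to 1099, 538 to 653 and 694 to 981 CPM, with 2 of the 12 at 0 in each group. Their part in the Ly6a levels was not tested.

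Whether the cytokines differed from each other in NK cells was not part of the choice of genes and was tested. None of the 3 genes passed an adjusted p of 0.05 for IL10/2-Trikine against mono-IL10 in edgeR's quasi-likelihood test, against 20 of 2448 genes called (0.817%). Ly6a differed by 0.12 on the log2 scale (SE 0.26, 95% interval -0.41 to 0.64, adjusted p = 0.915) and Ly6e by -0.15 (SE 0.18, -0.52 to 0.22, adjusted p = 0.802). Thy1 was higher by 0.46 (SE 0.16, 0.12 to 0.80) with an adjusted p of 0.173, and 4 of the 5 IL10/2-Trikine mice lay above all 4 mono-IL10 mice.

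Across cell types, Ly6a was highest in Treg cells, the regulatory T cells that restrain other lymphocytes. Pooled over libraries it stood at 2055 CPM in 127 Treg cells, 1367 in Cycling_Treg, 1075 in endothelial-like cells, 1006 in ISG+CD8T, 885 in act_CD4T and 836 in mast cell or basophil-like cells. Then came naive_CD8T with 454 CPM, Cycling_NK with 439, Cycling_T with 397, naive_CD4T with 391, NK with 257 and Th17/ILCs with 165. The lowest lymphocytes were gdT/NKT with 80.7 CPM and naive_T with 0 UMIs in 25 cells, which allows up to 3 UMIs, and macrophage-like cells were at 51.2 CPM. The place of NK in this order depends on the library: in the PBS library NK cells were at 35.4 CPM, below gdT/NKT with 51.5 and macrophage-like cells with 46.9 CPM, and only 170 of the 795 NK cells came from that library. Between neighbours in this order that both had 20 cells in at least 2 libraries, the ranges over libraries overlapped in 9 of 10 cases, the exception being naive_CD4T above NK. These are levels over clusters made from the same cells, so no test was run on them.

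**Figure D2:**
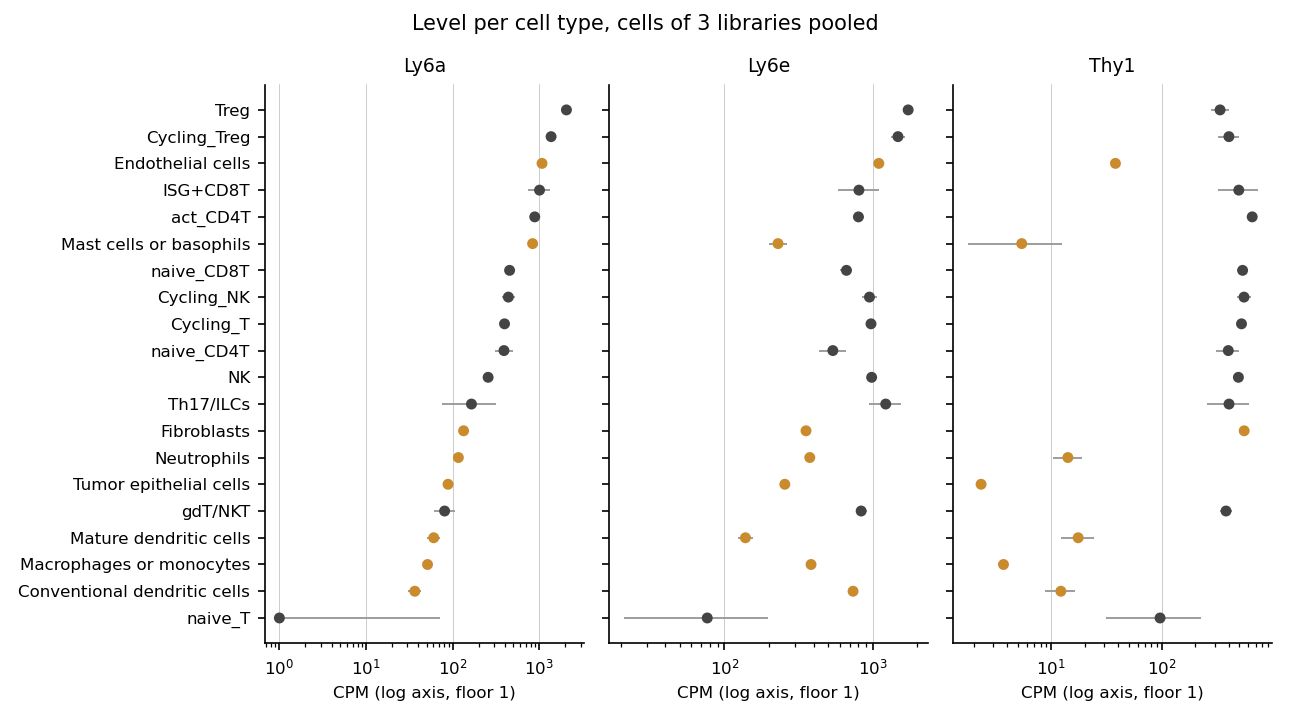
CPM (x axis, log scale) of each gene by cell type, pooled over the 3 libraries, with 95% counting intervals as lines; dark points are the annotated clusters and orange points the cell types named from markers, ordered by Ly6a, and a level of 0 is drawn at 1. Ly6a spans from 0 in naive_T to 2055 CPM in Treg, and Thy1 separates the lymphocyte clusters and fibroblasts, at 334 CPM or more except in naive_T, from the other cells, at 37.9 CPM or less.

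Ly6e was also highest in Treg. It was at 1736 CPM in Treg, 1482 in Cycling_Treg and 1226 in Th17/ILCs, between 952 and 985 CPM in NK, Cycling_T and Cycling_NK, at 837 in gdT/NKT, and at 76.7 CPM in naive_T. Outside the lymphocytes it reached 1101 CPM in endothelial-like cells, 738 in conventional dendritic-like cells and 384 in macrophage-like cells. Its ranges over libraries overlapped for 9 of 11 pairs of neighbours. Thy1 was held mainly by lymphocytes, with 652 CPM in act_CD4T, 550 in Cycling_NK, 534 in naive_CD8T, 522 in Cycling_T, 489 in NK and 334 in Treg. Fibroblast-like cells, which are known to carry Thy1, held 552 CPM, and macrophage-like and tumor epithelial-like cells 3.70 and 2.32 CPM. Its ranges overlapped for 9 of 10 pairs of neighbours.

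In T cells, taken as all annotated clusters but NK and Cycling_NK, each of the 3 genes kept an adjusted p above 0.05 in all 3 comparisons. Ly6a was at 654, 199, 519, 577 and 463 CPM in PBS mice, at 699, 703, 1221, 659 and 693 CPM in mono-IL10 mice and at 947, 643, 486, 492 and 819 CPM in IL10/2-Trikine mice. All 5 mono-IL10 mice lay above all 5 PBS mice, by a narrow margin at the lower end, while 2 of 5 IL10/2-Trikine mice did. The share of all genes that separate the mice was counted in NK cells only, so none stands beside this. The log2 difference from PBS was 0.73 for mono-IL10 (SE 0.22, 95% interval 0.28 to 1.18, adjusted p = 0.0811), where 55 of 3189 genes were called (1.72%). It was 0.55 for IL10/2-Trikine (SE 0.24, 0.06 to 1.03, adjusted p = 0.155), where 286 were called (8.97%). Without the Cycling_T cluster, which left 3 IL10/2-Trikine mice with enough cells, the latter came to 1.12 with an adjusted p of 0.0410. In T cells with no mouse Ly6a was at 375 CPM after PBS, 477 CPM after mono-IL10 and 301 CPM after IL10/2-Trikine. The T cell pool was made of different clusters in each group: Cycling_T was 80 of these 118 IL10/2-Trikine cells and 12 of the 93 PBS cells, and over all annotated cells naive_CD8T held 38, 160 and 2 cells in the PBS, mono-IL10 and IL10/2-Trikine libraries. The NK cell marker sums of T cells also differed between the groups and are given with the STAT5 genes below. Without the NK-like cells of Cycling_T, defined below, the ratio of mean Ly6a to PBS was 1.56 after IL10/2-Trikine and 1.60 after mono-IL10. With all T cells these ratios were 1.40 and 1.65. The part of cluster make-up and NK cell markers in the levels here was not tested further.

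Thy1 in T cells was at 518, 329, 432, 329 and 331 CPM in PBS mice, 537, 456, 583, 519 and 597 CPM after mono-IL10 and 553, 687, 347, 449 and 504 CPM after IL10/2-Trikine. In 4 of 5 mono-IL10 mice and 2 of 5 IL10/2-Trikine mice the level was above all PBS mice. The differences from PBS were 0.52 (SE 0.15, 95% interval 0.22 to 0.83, adjusted p = 0.0680) and 0.48 (SE 0.16, 0.14 to 0.81, adjusted p = 0.0691). Ly6e ranged from 788 to 1116 CPM after PBS, from 818 to 1151 CPM after mono-IL10 and from 1023 to 1279 CPM after IL10/2-Trikine, with differences from PBS of 0.00 (95% interval -0.23 to 0.24, adjusted p = 0.9999) and 0.21 (-0.04 to 0.46, adjusted p = 0.315). Between the treated groups, where 391 genes were called (12.3%), IL10/2-Trikine minus mono-IL10 was -0.19 for Ly6a, 0.21 for Ly6e and -0.05 for Thy1, with adjusted p-values of 0.651, 0.267 and 0.891.

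**Figure D3:**
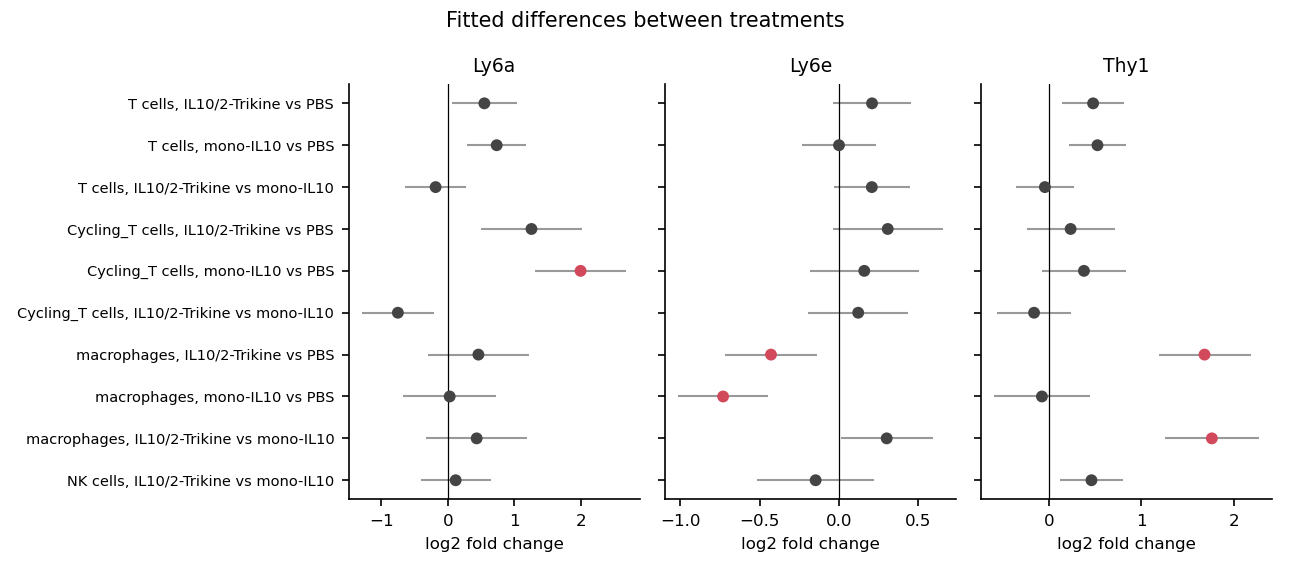
Log2 fold change (x axis) of each gene from edgeR in each tested comparison (rows), with 95% intervals as lines; red points passed an adjusted p of 0.05 over all genes. Ly6a passed once, at 1.99 in Cycling_T cells of mono-IL10 mice against PBS, Ly6e passed in 2 comparisons, below 0 in macrophages of both treated groups against PBS, and Thy1 passed in the 2 macrophage comparisons with IL10/2-Trikine as the first group.

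Within single clusters, Ly6a was higher in both treated libraries than in the PBS library of act_CD4T and Treg cells and higher in the mono-IL10 library of naive_CD8T cells, which had only 2 IL10/2-Trikine cells, but not in every cluster. In act_CD4T, the activated CD4 T cells, Ly6a was at 417 CPM in 56 PBS cells, 1052 in 88 mono-IL10 cells and 1101 in 28 IL10/2-Trikine cells, ratios to PBS of 2.53 (95% counting interval 1.99 to 3.24) and 2.64 (1.91 to 3.65). In Treg it was at 1505, 2335 and 2552 CPM, ratios of 1.55 (1.30 to 1.86) and 1.70 (1.36 to 2.11). In naive_CD8T it was at 257 CPM after PBS and 483 CPM after mono-IL10, a ratio of 1.88 (1.24 to 2.95). In Cycling_Treg Ly6a was at 1376, 1354 and 1370 CPM in 13, 6 and 13 cells, too few cells to say whether it changed. In naive_CD4T the ratio of mono-IL10 to PBS was 1.24 with an interval that spanned 1 (0.741 to 2.11). In gdT/NKT the ratios to PBS were 1.53 (0.727 to 3.40) and 2.73 (1.23 to 6.27). Ly6e in act_CD4T had ratios to PBS of 0.981 (0.809 to 1.195) and 1.25 (0.930 to 1.67), and in Treg of 1.08 (0.896 to 1.30) and 1.14 (0.902 to 1.44), so that all 4 intervals spanned 1, whereas in naive_CD8T it was 1.73 (1.25 to 2.48) for mono-IL10. Thy1 in act_CD4T stood at 417, 714 and 892 CPM, with ratios of 1.71 (1.34 to 2.22) and 2.14 (1.52 to 3.01), whereas in Treg its intervals spanned 1. Each of these libraries pools 5 mice and has no replicate, so these intervals say nothing of the spread between mice.

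**Figure D4:**
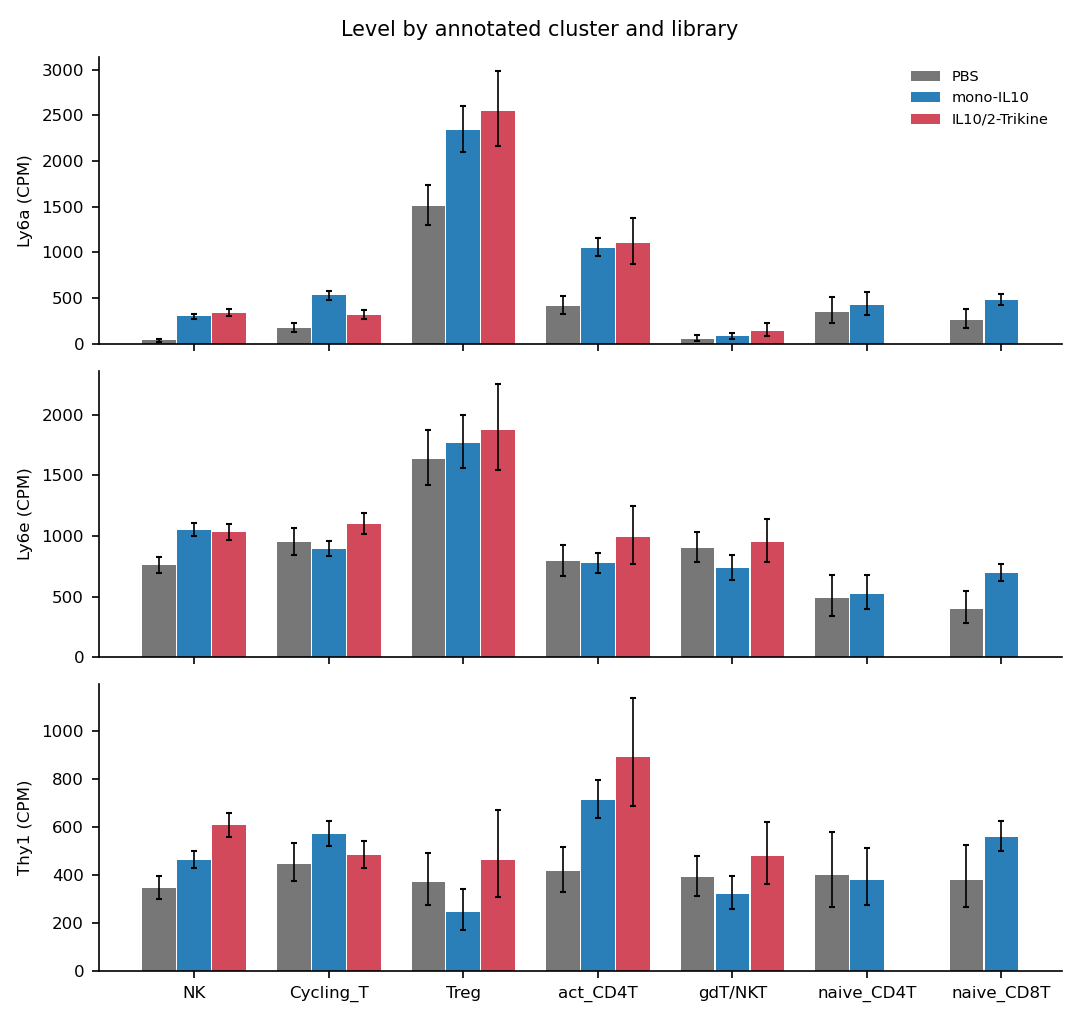
CPM (y axis, from 0) of each gene in the annotated clusters (x axis) with at least 20 cells in 2 or more libraries, by library; bars are summed counts over all cells of a library and lines are 95% counting intervals, with no bar where a library had under 20 cells. Ly6a in act_CD4T is at 417 CPM in the PBS library and above 1000 CPM in both treated libraries, and in NK it is at 35.4, 298 and 337 CPM.

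Ly6a rose in Cycling_T cells, the T cells in division, of mono-IL10 mice. Levels were 165, 78.8, 181, 191 and 92.8 CPM in PBS mice and 668, 473, 387 and 718 CPM in mono-IL10 mice. These groups did not overlap, but the share of all genes without overlap was not counted here. The log2 difference was 1.99 (SE 0.33, 95% interval 1.30 to 2.68, adjusted p = 0.00409), in a comparison where 17 of 1341 genes were called (1.27%). PBS mice had between 5 and 12 such cells, so mice entered with at least 5 cells here in place of 10, and the mono-IL10 mouse with 4 cells, at 260 CPM, was left out. In the Cycling_T cells with no mouse Ly6a was at 269 CPM in 12 PBS cells (95% counting interval 157 to 430) and at 440 CPM in 21 mono-IL10 cells (333 to 572), a smaller difference than between the mice. The IL10/2-Trikine mice were at 261, 524, 305, 102 and 272 CPM, 4 of the 5 above all PBS mice. Their difference from PBS was 1.25 (SE 0.37, 0.50 to 2.01, adjusted p = 0.0585; 42 of 1341 genes called, 3.13%), and the difference of IL10/2-Trikine minus mono-IL10, fitted on mice with at least 10 cells, was -0.75 (SE 0.26, -1.29 to -0.21, adjusted p = 0.0934; 107 of 1935 called, 5.53%).

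The Cycling_T cluster was not of the same make-up in the 3 libraries. In mice with at least 10 of its cells the 8 T cell markers summed to 2311 to 3636 CPM in PBS, 3786 to 4331 CPM in mono-IL10 and 1431 to 2220 CPM in IL10/2-Trikine, and the 8 NK cell markers to 827 to 1044, 848 to 2312 and 2454 to 3393 CPM. Of these 16 markers only Klra8, in PBS, was at 0. The 7 mast cell or basophil markers summed to 91.9 and 1531 CPM in the 2 PBS mice, 0 to 17.3 CPM after mono-IL10 and 0 to 170 CPM after IL10/2-Trikine, with 1, 5 and 6 of the 7 at 0, and their part in the Ly6a levels was not tested. NK-like cells were then left out. These held at least 2 UMIs summed over Ncr1, Klrb1c, Klre1, Tyrobp and Fcer1g, and none of Cd3d, Cd3e, Cd3g, Trac or Trbc2. Tyrobp and Fcer1g are not among the 8 NK cell markers. Without NK-like cells, the rise of Ly6a after mono-IL10 stood at 1.80 (adjusted p = 0.0156). The difference between the treated groups was -0.39 (adjusted p = 0.594), with 3 IL10/2-Trikine and 4 mono-IL10 mice left at 10 cells. Ly6e and Thy1 passed no test in Cycling_T cells. Ly6e differed from PBS by 0.16 after mono-IL10 (95% interval -0.18 to 0.50, adjusted p = 0.763) and by 0.31 after IL10/2-Trikine (-0.04 to 0.65, adjusted p = 0.366), and Thy1 by 0.38 (-0.08 to 0.83, adjusted p = 0.512) and 0.23 (-0.24 to 0.71, adjusted p = 0.662).

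Macrophages or monocytes were the phagocytes that were named from markers here (7177, 5624 and 4758 cells with a mouse). Clusters that matched them best but stayed unnamed were left out. Among these was cluster 20 (840, 452 and 340 cells), with Ccr2 and Chil3 among its leading genes. In the named cells Ly6e fell after both treatments. It was at 511, 401, 525, 587 and 449 CPM in PBS mice, at 373, 340, 207, 215 and 278 CPM in mono-IL10 mice and at 371, 295, 423, 404 and 360 CPM in IL10/2-Trikine mice. All 5 mono-IL10 mice lay below all PBS mice, and 3 of the 5 IL10/2-Trikine mice did. How many of all genes separate the mice in this way was not counted in macrophages. The log2 difference was -0.73 after mono-IL10 (SE 0.14, 95% interval -1.01 to -0.45, adjusted p = 0.000479), where 3100 of 12002 genes were called (25.8%). After IL10/2-Trikine it was -0.43 (SE 0.14, -0.72 to -0.14, adjusted p = 0.0364), where 2171 were called (18.1%). The mono-IL10 call held in all 15 fits that left out a mouse, but the IL10/2-Trikine call was lost without PBS mouse 1, 3 or 4 or IL10/2-Trikine mouse 1, 2 or 5 (adjusted p between 0.0603 and 0.109), and with only cells of at least 2000 genes, where the difference was -0.21 (adjusted p = 0.444). The difference between the treated groups was 0.30 (SE 0.14, adjusted p = 0.178; 1363 genes called, 11.4%). Other marker sums were also lower in every treated mouse than in every PBS mouse: the 4 markers of cycling cells summed to 222 to 336 CPM after PBS, 69.5 to 134 CPM after mono-IL10 and 55.5 to 180 CPM after IL10/2-Trikine, and the 6 of mature dendritic cells to 660 to 862, 524 to 642 and 367 to 478 CPM. The 5 of plasmacytoid dendritic cells summed to 249.9 to 330, 191 to 239.9 and 216 to 245 CPM, with 1, 2 and 1 of them at 0, while none of the cycling or mature dendritic cell markers was. Their part in the fall of Ly6e was not tested.

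The lower Ly6e was seen across the clusters that were named as macrophage-like. Among the 11 clusters of these cells it was lower than in the PBS library in 11 for mono-IL10 and in 10 for IL10/2-Trikine, with median ratios of 0.620 and 0.720. The libraries filled these clusters unevenly, the largest being cluster 17 for PBS, led by Cx3cr1 and Hpgds, cluster 15 for mono-IL10, led by Cd163 and Pf4 among others, and cluster 12 for IL10/2-Trikine, led by Ccl12 and Fcrls. In cluster 17 Ly6e was at 584, 307 and 421 CPM in the 3 libraries, in cluster 15 at 396, 221 and 290 CPM and in cluster 12 at 536, 237 and 321 CPM. Cluster 54, whose leading genes include interferon-induced genes such as Rsad2 and Ifit2, had Ly6a at 586, 386 and 320 CPM, above the other clusters in each library, and Ly6e at 1401, 901 and 901 CPM, above the others in the PBS and mono-IL10 libraries. In the IL10/2-Trikine library cluster 30 was higher in Ly6e, at 938 CPM. Median depth was 5068, 6194 and 2751 UMIs per cell in the 3 libraries, and its part in the difference was not tested beyond the filter on genes above.

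**Figure D5:**
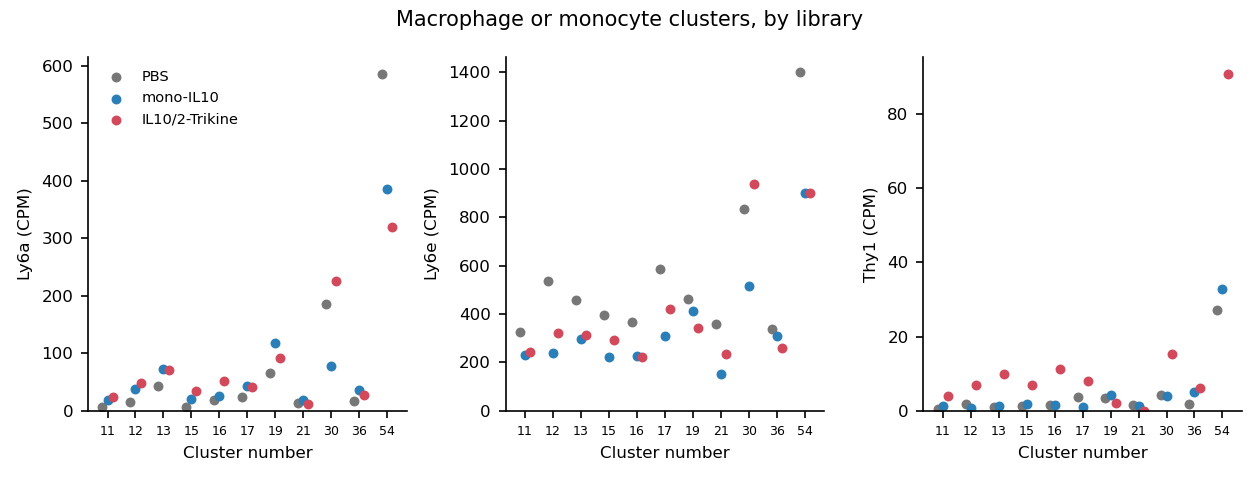
CPM (y axis, from 0) of each gene in the 11 macrophage or monocyte-like clusters (x axis, cluster number) of the PBS, mono-IL10 and IL10/2-Trikine libraries, 1 point per library with no replicate. Ly6e lies below the PBS point in all 11 clusters for mono-IL10 and in 10 for IL10/2-Trikine, and cluster 54 is highest in each library for all 3 genes except for Ly6e in IL10/2-Trikine, where cluster 30 is at 938 CPM.

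Ly6a in macrophages did not pass a test. It ranged from 27.5 to 95.7 CPM in PBS mice with a median of 38.6, from 19.0 to 81.2 CPM after mono-IL10 and from 50.5 to 93.3 CPM after IL10/2-Trikine, and all groups overlapped. The differences from PBS were 0.03 (95% interval -0.67 to 0.73, adjusted p = 0.973) and 0.46 (-0.30 to 1.22, adjusted p = 0.430), and that between the treated groups 0.43 (-0.33 to 1.19, adjusted p = 0.515). Within clusters, which are 1 library per treatment with no replicate, Ly6a was higher than in PBS in 9 of 11 for either treatment. Median ratios were 1.72 and 1.62. After mono-IL10 it was lower in clusters 30 (185 CPM in PBS, 78.4 CPM in mono-IL10) and 54 (586 and 386 CPM), which held the most Ly6a in the PBS library. After IL10/2-Trikine it was lower in clusters 21 and 54.

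Thy1 in macrophages was near the floor of detection and was called higher after IL10/2-Trikine. Levels were 2.65, 1.96, 4.45, 2.87 and 2.78 CPM in PBS mice, 2.83, 3.83, 2.10, 1.97 and 1.84 CPM after mono-IL10 and 10.2, 11.5, 4.95, 7.47 and 7.98 CPM after IL10/2-Trikine. The IL10/2-Trikine mice all lay above those of the other groups, a separation not counted over all genes in macrophages. Log2 differences were 1.68 from PBS (SE 0.24, 95% interval 1.19 to 2.18, adjusted p = 6.57e-05) and 1.76 from mono-IL10 (SE 0.24, adjusted p = 0.000131). Mono-IL10 minus PBS was -0.08 (adjusted p = 0.860). With only cells of at least 2000 genes the mean of the IL10/2-Trikine mice was 5.93 times that of PBS (adjusted p = 2.88e-06 by edgeR), against 2.87 times with all cells, and its log2 difference from mono-IL10 was 2.83 (adjusted p = 2.13e-06), with mean levels of 3.55 CPM after PBS, 2.69 CPM after mono-IL10 and 21.1 CPM after IL10/2-Trikine. Markers of cells that carry Thy1 moved with this: the 8 T cell markers summed to 26.7 to 44.7 CPM in PBS macrophages, 10.5 to 30.8 CPM in mono-IL10 and 55.7 to 83.4 CPM in IL10/2-Trikine, the 8 NK cell markers to 14.0 to 26.6, 4.42 to 17.0 and 21.8 to 49.2 CPM and the 7 fibroblast markers to 15.7 to 29.2, 7.73 to 13.7 and 21.1 to 40.8 CPM, with none at 0. Macrophages were then left out if they had any UMI of Cd3d, Cd3e, Cd3g, Trac, Trbc2, Ncr1, Klrb1c or Klre1. Those with Cdh5, Kdr, Cldn5, Esam, Egfl7, Dcn, Lum, Pdgfra or Pdgfrb were left out too. Other T cell, NK cell or fibroblast markers, such as Lck, Gzma or Col1a1, were not part of this filter. In the remaining cells Thy1 was at 0.488, 0.825 and 2.12 CPM in the 3 groups (18, 29 and 38 UMIs). Of the 5 IL10/2-Trikine mice, 4 lay above all PBS mice and 1 below them. The mean of the IL10/2-Trikine mice was 4.35 times that of PBS, and the gene had too few counts to enter the fit. Among thinned macrophages 0.271, 0.209 and 0.935% held a Thy1 UMI.

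The treatment differences of T cells and macrophages were set against each other over the mice, as the log2 level in T cells minus that in macrophages of the same mouse. This was done for Ly6a, Ly6e and Thy1 only, so no share of all genes stands beside it. Ly6e differed between the cell types by 0.78 for mono-IL10 against PBS (exact two-sided permutation test, 5 against 5 mice, p = 0.0159, 0.0357 after adjustment over 9 tests) and by 0.60 for IL10/2-Trikine against PBS (p = 0.00794, adjusted 0.0238). A p of 0.00794 is the smallest that 5 against 5 mice can give. Ly6a differed by 0.96 for mono-IL10 (exact p = 0.175, adjusted 0.224) and by -0.01 for IL10/2-Trikine, for which the exact p was 1.

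Of the other Ly6 and uPAR family genes, few were expressed. From a list of 37 that includes Ly6a and Ly6e, 36 were in the matrices, and 4 others had a mean of at least 10 CPM in 1 of the cell types tested. Ly6c2, a marker of monocytes and of memory T cells, was at 206 CPM in NK cells, 319 in T cells and 256 in Cycling_T cells. Plaur, the urokinase receptor, was at 484 CPM in macrophages and at 20.1 and 11.6 CPM in NK and T cells, and Ly6g5b was at 21.2 CPM in NK cells. Ly6a2 was at 11.2 CPM in NK cells, with 22.8 CPM in the PBS mice and 6.14 and 3.66 CPM in the treated groups. These Ly6a2 values rest on 20 UMIs over all mice, too few for the fit, so no change is read from them. In T, Cycling_T and NK cells Ly6c2 was the only family gene beside the members that had enough counts for the fit, and it passed in 0 of the 7 comparisons, with log2 differences between -0.80 and 0.30 and adjusted p-values of 0.126 or more.

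In macrophages 5 family genes beside the members were tested, where 25.8% of all genes were called after mono-IL10 and 18.1% after IL10/2-Trikine. Plaur fell after mono-IL10 by 0.35 on the log2 scale (SE 0.07, adjusted p = 0.00124) and after IL10/2-Trikine by 0.60 (SE 0.07, adjusted p = 1.42e-05). In the named macrophages, which leave out the unnamed cluster 20 with Ccr2, Ly6c2 was low, at 10.7 CPM after PBS, 2.70 after mono-IL10 and 10.4 after IL10/2-Trikine. It fell after mono-IL10 by 1.70 (SE 0.35, adjusted p = 0.00125) and did not pass after IL10/2-Trikine, where the difference was -0.03 (adjusted p = 0.974). T cells held far more Ly6c2, at 319 CPM. The T and NK cell marker sums of macrophages given above also differed between the groups, and their part in the Ly6c2 levels was not tested. Ly6g6e, at 0.697 CPM after PBS and 2.98 and 4.08 CPM after the treatments, rose by 2.24 and 2.44 (adjusted p = 1.33e-05 and 5.04e-05). Cd59a, an inhibitor of complement lysis, rose after mono-IL10 by 0.88 (SE 0.23, adjusted p = 0.00774), at levels of 2.68, 4.72 and 2.71 CPM in the PBS, mono-IL10 and IL10/2-Trikine groups.

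Of 37 other interferon-stimulated genes, 9 could be tested in T cells: for IL10/2-Trikine against PBS 0 rose and 1 fell (Ifi27l2a, by 0.89, adjusted p = 0.0191), and for mono-IL10 against PBS none passed, beside 8.97% and 1.72% of all genes called, with median log2 differences of -0.75 and -0.20 where all genes had medians of -0.01 and 0.00. In macrophages 36 were tested, of which 6 fell and 0 rose after mono-IL10, a smaller share than the 25.8% of all genes called, among them Ifi27l2a by 1.10, the kinase gene Eif2ak2 by 0.29 and the tethering factor gene Bst2 by 0.28 (adjusted p = 0.00249, 0.00798 and 0.0153). After IL10/2-Trikine 2 rose, Ifi47 by 0.69 and Oas2 by 0.74, and Bst2 fell by 0.28 (adjusted p = 0.0116, 0.0456 and 0.0267), again a smaller share than the 18.1% of all genes. Medians in macrophages were -0.14 and 0.14 against -0.02 and 0.01 over all genes.

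The 8 genes that share the study's STAT5 list with Ly6a and Thy1 were all tested in T cells. After mono-IL10 5 rose and 0 fell, with a median of 0.83, and after IL10/2-Trikine 5 rose and 0 fell, with a median of 1.10, where 1.72% and 8.97% of all genes were called and the medians of all genes were 0.00 and -0.01. Gzma, Prf1 and Gzmb, which encode the killing proteins granzyme A, perforin and granzyme B, rose by 1.79, 1.78 and 1.29 after mono-IL10 (adjusted p = 0.000238, 0.0173 and 0.000238) and by 2.88, 2.94 and 1.31 after IL10/2-Trikine (adjusted p = 1.04e-07, 4.94e-05 and 8.77e-05). The NK cell markers named above, which include Gzma and Prf1, summed to 401 to 775 CPM in T cells of PBS mice, 754 to 1367 CPM after mono-IL10 and 1863 to 2980 CPM after IL10/2-Trikine. The study scored these same samples with that list, so its direction here is not independent evidence. In macrophages 7 of the 8 were tested: all 7 rose after IL10/2-Trikine, led by Gzmb with 2.34 and Prf1 with 2.96 (adjusted p = 5.29e-06 and 0.000243), where 18.1% of all genes were called, beside the T and NK cell marker sums given above. After mono-IL10 1 of the 7 rose and 1 fell, beside 25.8% of all genes called. In NK cells 0 of the 8 passed for IL10/2-Trikine against mono-IL10 by edgeR, where 0.817% of all genes were called, and 2 of the 8 had an unadjusted p under 0.05, as did 340 of all 2448 genes. Of 15 other known STAT5 targets, 12 were tested in T cells: Cish, a feedback inhibitor of cytokine signaling, fell by 1.09 after mono-IL10 (adjusted p = 0.00336), and Il2rb, a chain of the IL-2 receptor, rose by 0.46 after IL10/2-Trikine (adjusted p = 0.0206), each the 1 gene of the 12 that passed, beside 1.72% and 8.97% of all genes called. In macrophages all 15 were tested, with 4 that rose and 1 that fell after IL10/2-Trikine and 2 that rose and 2 that fell after mono-IL10, beside 18.1% and 25.8% of all genes called, so that the count after mono-IL10 was close to that of all genes. Of 31 genes for making and remodelling GPI anchors, 2 could be tested in T cells and none passed, and in macrophages 29 were tested, with 3 that rose and 2 that fell after mono-IL10 and 2 that rose after IL10/2-Trikine, both smaller shares than the 25.8% and 18.1% of all genes called. Pgap6, an anchor-trimming enzyme gene, led both, with rises of 2.57 and 2.44 (adjusted p = 1.21e-08 and 1.38e-07).

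The genes most alike each member were found over 20 pools of 1 cluster in 1 library, which share libraries and depths, so the correlations are a description. Among 3247 genes, Ly6a was closest to Ctla4 (Pearson r = 0.89), an inhibitory receptor of regulatory T cells, then to S100a13 (0.88), Glipr1, Rac1 and Sla. Ly6e was closest to Mdh1 (0.94), then Pkm (0.86), Itgav, Frmd5 and Gnb2. Thy1 was closest to Ifng (0.73), the gene of interferon-γ, then Rps26 (0.72), Eif3l, Arcn1 and Bola2. Between the members r was 0.48 for Ly6a and Ly6e, 0.23 for Ly6a and Thy1 and -0.04 for Ly6e and Thy1.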

How the data were processed

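The deposited matrices held UMI counts per gene and barcode, which the authors made with Cell Ranger on GRCm39 and did not normalize. The deposited cell table gave clusters named by the authors, mice and the percent of mitochondrial UMIs. It held no cell that the authors called a hashtag doublet, and its 1 group with no sample here was not used. The submitters' processing notes name Seurat 5.1.0 and DESeq2 1.46.0.

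Other barcodes with at least 1000 genes and at most 10% mitochondrial UMIs were assigned to mice with HTODemux (quantile 0.99). Barcodes of several hashtags (8.64 to 13.3%) were left out, and 60 k-means clusters were made and named from markers. Clusters without a clear match were left unnamed, with 20308 cells outside the authors' annotation. Many of these clusters matched macrophages or monocytes best, such as cluster 20, with Ccr2 and Chil3 among its leading genes. They are not part of the macrophage values. In annotated cells 97.1 to 98.6% of calls equalled the authors' calls.

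Counts were summed per mouse (at least 10 cells, 3 mice per group) and tested with edgeR 4.0.16 (TMM, filterByExpr, glmQLFTest) over all groups and genes, with Benjamini-Hochberg adjustment at 0.05, after a test on simulated data. Cycling_T against PBS left 2 PBS mice at 10 cells and is reported at 5. Alternatives were DESeq2 1.42.0, its size factors, no filter on low counts, exact permutation, other cell sets and leaving out each mouse. The members and lists were chosen with earlier results of these data known. Family genes with at least 10 CPM or a call, up to 4 called genes of other lists and the 5 genes of highest r were named. Promoter entries were not found for the 3 genes. Python 3.11.15, scipy 1.17.1, scikit-learn 1.9.0 and R 4.3.3 were used.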

Additional observations from a re-analysis of the deposited data

Results flagged for a closer look

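Single mice stood apart from the rest of their group in 4 of the 36 groups of 4 or 5 mice examined. Chance gives about 1 in 20 for independent groups of normally spread values. The groups here share mice, and Cycling_T cells are part of the T cells, so the count cannot be read against that rate. Ly6a in NK cells of PBS mouse 4 was at 124 CPM, with 21.98 CPM as the next value. It is among the values the genes were chosen on and is given as a description. Ly6a in T cells of mono-IL10 mouse 3 was at 1221 CPM, with 703 CPM next, from 26 cells. Ly6e in T cells of IL10/2-Trikine mouse 1 was at 1279 CPM, with 1094 CPM next. Ly6e in Cycling_T cells of mono-IL10 mouse 2 was at 1156 CPM, with 870 CPM next.

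The effect of a treatment differed between T cells and macrophages of the same mice in 4 of 9 exact permutation tests after adjustment. As T cells minus macrophages on the log2 scale, the difference was 0.60 for Ly6e with IL10/2-Trikine against PBS (exact p = 0.00794, adjusted 0.0238) and 0.78 for Ly6e with mono-IL10 against PBS (exact p = 0.0159, adjusted 0.0357). For Thy1 it was -0.86 with IL10/2-Trikine against PBS and -1.52 with IL10/2-Trikine against mono-IL10 (exact p = 0.00794 and adjusted 0.0238 for both, the smallest p these splits can give). The macrophage side of the Thy1 values rests on levels of 1.84 to 11.5 CPM, beside the T and NK cell marker sums given with them. Only Ly6a, Ly6e and Thy1 were tested in this way, so the share of all genes that differ between the cell types is not known. In macrophages alone, 25.8% of all genes were called after mono-IL10 and 18.1% after IL10/2-Trikine, each against PBS. The T cell pools also differed in cluster make-up between the groups, and its part in these differences was not tested.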

How the results depend on the processing

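Of the alternatives to the values given, 694 kept the side of the threshold or, for the NK levels against PBS, kept direction and moved by less than the SD. Calls were reversed in 0 cases, but differences that were not called could change sign. For Ly6a in T cells between the treated groups, -0.19 in the main fit stood against alternatives of -0.34 to 0.47. The cause of the changes listed here was not tested. With no filter on low counts, Ly6a passed in T cells after mono-IL10 (0.77, adjusted p = 4.82e-06), in Cycling_T cells after IL10/2-Trikine (1.31, adjusted p = 0.0116) and in Cycling_T cells between the treated groups (-0.93, adjusted p = 0.00233), and Thy1 passed in T cells after mono-IL10 (0.57, adjusted p = 0.0129). When log2(CPM + 1) was permuted exactly over mice, with unadjusted p, Ly6a in T cells after mono-IL10 was at 0.78 (p = 0.00794, the smallest possible), Thy1 there at 0.49 (p = 0.0159), Ly6a in Cycling_T cells between the treated groups at -1.07 (p = 0.0476) and Thy1 in NK cells between them at 0.54 (p = 0.0238). Other cell sets gave 1.12 for Ly6a in T cells without Cycling_T after IL10/2-Trikine, 0.62 for Thy1 in T cells with at least 20 cells per mouse after IL10/2-Trikine (adjusted p = 0.0334), and, with at least 2000 genes per macrophage, -0.21 for Ly6e after IL10/2-Trikine and 0.54 for Ly6e between the treated groups (adjusted p = 0.0152). In NK cells with no mouse, the difference from PBS was 207 CPM for Thy1 after IL10/2-Trikine (335 CPM with mice) and 209 CPM for Ly6a after mono-IL10 (306 CPM with mice).

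Leaving out each mouse in turn gave 0.32 to 0.60 for Thy1 in T cells after IL10/2-Trikine (called without PBS mouse 1 or IL10/2-Trikine mouse 3) and 0.45 to 0.63 after mono-IL10 (called without PBS mouse 1). For Ly6a in Cycling_T cells it gave 0.82 to 1.46 after IL10/2-Trikine (called without IL10/2-Trikine mouse 4), -1.17 to -0.64 between the treated groups (called without PBS mouse 2 or 4, mono-IL10 mouse 4 or IL10/2-Trikine mouse 2), and 1.73 to 2.19 after mono-IL10, called in all 14 fits. For Ly6e in macrophages it gave -0.48 to -0.35 after IL10/2-Trikine, called in 9 of 15 fits, 0.20 to 0.43 between the treated groups (called without mono-IL10 mouse 1), and -0.85 to -0.63 after mono-IL10, called in 15 of 15.

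No paired analysis was possible because the hashtag numbers name different mice in each library. The removal of NK-like cells from T cells, the removal of macrophages with markers of other cells and the minimum of 5 Cycling_T cells were chosen after seeing the data. Cycling_T cells with at least 20 cells per mouse were not run, since under 3 mice per group were left. Each treatment is 1 library, PBS mice had as few as 10 NK cells, and a level of 0 there allows up to 3 UMIs.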

Other observations

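Mast cell or basophil-like cells had a Ly6a level of 327 CPM in the PBS library (53 cells), 1297 CPM in the mono-IL10 library (48 cells) and 691 CPM in the IL10/2-Trikine library (52 cells), while their Thy1 was at 0, 2.52 and 16.7 CPM. Endothelial-like cells were at 1000, 1147 and 1161 CPM of Ly6a, and tumor epithelial-like cells at 84.7, 94.9 and 85.1 CPM. Neutrophil-like cells were at 92.7, 127 and 171 CPM of Ly6a. In gdT/NKT cells Ly6a was at 51.5, 79.0 and 141 CPM, with ratios to PBS of 1.53 (95% counting interval 0.727 to 3.40) and 2.73 (1.23 to 6.27). In Cycling_NK cells it was at 536 CPM in 54 IL10/2-Trikine cells and 379 CPM in 10 mono-IL10 cells, and 0 UMIs were found in 4 PBS cells. These are single libraries with no replicate and no test.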
